A study of Mus musculus with 16 samples.

Results

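Enolase 1B (Eno1b), androglobin (Adgb) and a set of zinc finger genes that the deposited table lists under the symbol Zfp54 were followed across all libraries of a study on ADAP in macrophages. The members were chosen by the symbols Eno1, Adgb and Zfp54, which had been selected on their level in input RNA of Adap-/- against WT cells, so the genotype differences below are descriptions without a test. These symbols hold 12 of the 4943 genes and 16 of the 7069 peaks in the table. The cells were peritoneal macrophages (PMs) lavaged from mice after thioglycolate injection, which draws macrophages into the cavity. WT and Adap-/- PMs were left without LPS (mock) or received LPS at 1 µg/ml for 6 h, which gave 4 groups (WT mock, WT LPS, Adap-/- mock, Adap-/- LPS) of 2 replicates. Adap-/- mice lack ADAP, the adaptor protein encoded by Fyb1, in every cell, and per the study's methods all mice were sex-matched littermates of 6 to 8 weeks on a C57BL/6 background. The same methods state that WT C57BL/6 mice were bought from a supplier and that the Adap-/- line was provided by another laboratory. Each replicate was sequenced as input, the fragmented RNA itself, and as IP, the fragments bound by an antibody against N6-methyladenosine (m6A), giving 8 input and 8 IP libraries.

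The symbol column of the table gives 86 symbols to more than 1 gene, and for 10 of the 12 members the symbol went against the gene description beside it, Adgb and Zfp54 itself being the exceptions. The line called Eno1 is described as enolase 1B, retrotransposed, and is named Eno1b here, while the parental gene of alpha enolase was not analysed here. The symbol Zfp54 stands for 10 genes, of which 8 lie on chromosome 17 (Zfp677, Zfp54 itself, Zfp51, Zfp52, Zfp948, Zfp229, Zfp758 and Zfp945) and 2 on chromosome 4 (Zfp993 and Zfp984). Each gene is called below by the name in its description. The term LPS-independent does not describe the level of every member either. LPS and mock input libraries stood apart for Adgb, Zfp993 and Zfp945 in both genotypes and for Zfp984 and Zfp51 in WT PMs, among others. They also did so for 77.1% of all tested genes in WT and 77.2% in Adap-/- PMs.

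Enolase turns 2-phosphoglycerate into phosphoenolpyruvate in glycolysis, the pathway on which macrophages draw more heavily after LPS, and Eno1b is a copy of alpha enolase that arose by reverse transcription of its mRNA. Androglobin joins a calpain-like protease domain to a rearranged globin domain and is known from testis and ciliated cells. C2H2 zinc finger proteins bind DNA, and those with a KRAB domain recruit TRIM28 and the histone methyltransferase SETDB1 to silence mobile elements. Such genes lie in clusters of similar copies, so reads can be shared between them. m6A is the most common internal mark of mRNA and lies mostly near stop codons and in the 3′ UTR.

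Reads on all peaks summed to between 2121313 and 4325961 per input library and between 5728590 and 19030373 per IP library. Fyb1 lay between 35.7 and 46.7 CPM (counts per 1000000 reads on the table's genes, scaled by TMM) in the 4 Adap-/- input libraries and between 244 and 377 CPM in the 4 WT input libraries, which is the direction of the labels. Of 10 macrophage markers 7 had a peak, with a summed level of 8720 to 10600 CPM in Adap-/- and 9480 to 10400 CPM in WT input. None of 6 neutrophil, 5 B cell, 5 T cell, 6 mesothelial and fibroblast or 7 testis and ciliated cell markers had a peak, so the table gives no level for them. The Adap-/- replicates differed from each other for some members: 16 of 4742 tested genes were at least 2-fold apart, in the same direction, between replicates 2 and 1 of both Adap-/- groups, Eno1b and Zfp984 among them. In WT PMs 7 genes did so, none of them a member. No label states that replicates came from separate animals, so standard errors and p-values measure the spread between these samples, which may be technical.

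The gene called Eno1 in the table separated the genotypes most widely. Its only peak, at chr18:48180902-48181077 on the plus strand (GRCm39, as deposited), covers the end of the coding sequence and the stop codon, and is also assigned to ENSMUSG00000118267, a gene without description. Input levels of Eno1b were 104 and 313 CPM in Adap-/- LPS, 166 and 504 CPM in Adap-/- mock, 1.24 and 1.08 CPM in WT LPS, and 0.767 and 0.808 CPM in WT mock. All 4 Adap-/- libraries lay far above all 4 WT libraries, in which 3 or 4 reads fell on the peak. Means were 208 ± 148 CPM (SD, n = 2) in Adap-/- LPS against 1.16 ± 0.112 in WT LPS, and 335 ± 239 in Adap-/- mock against 0.788 ± 0.029 in WT mock. The pooled reads gave a ratio of 167 after LPS (95% exact counting interval 80.7 to 416) and of 434 in mock (199 to 1180), where intervals here and below cover counting error only. The fitted log2 fold change of Adap-/- over WT was 7.42 ± 0.87 (SE) after LPS and 8.67 ± 0.83 in mock, and no gene of the 4742 tested had a higher one in either comparison, the gene with the same reads being equal. Leaving out replicate 2 of both Adap-/- groups gave 6.43 and 7.66. Since Eno1b and alpha enolase are close copies and how reads with several matches were treated is not given in the sources used here, the assignment of these reads to Eno1b is uncertain. In these bulk libraries fewer cells of a type and less RNA per cell cannot be told apart, for Eno1b and for the genes below.

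The LPS and mock levels of Eno1b in Adap-/- PMs differed by less than the replicates did. Replicate 2 exceeded replicate 1 by a factor of 3.00 in Adap-/- LPS and of 3.04 in Adap-/- mock, and the LPS and mock ranges overlapped. The log2 fold change of LPS over mock was -0.70 ± 0.41 in Adap-/- PMs, from -1.69 without Adap-/- LPS replicate 2 to 0.30 without Adap-/- mock replicate 2, so its sign rested on 1 library. LPS was below mock within each replicate number, and with the number as a block the value was -0.68 ± 0.12. In WT PMs it was 0.55 ± 2.47, on 3 or 4 reads per library, so no LPS difference was detectable at this depth.

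Adgb was higher in Adap-/- than in WT PMs with and without LPS, and its level also differed with LPS. Its peak lies in the coding sequence at chr10:10306827-10306977 on the minus strand. Input levels of Adgb were 21.2 and 31.0 CPM in Adap-/- LPS, 7.87 and 11.2 CPM in Adap-/- mock, 3.42 and 4.70 CPM in WT LPS, and 1.28 and 0.269 CPM in WT mock. The 4 groups stood in this order without overlap, and the lowest Adap-/- library was above the highest WT library. Means were 26.1 ± 6.95 CPM (SD, n = 2) in Adap-/- LPS, 9.52 ± 2.33 in Adap-/- mock, 4.06 ± 0.906 in WT LPS and 0.774 ± 0.714 in WT mock. Adap-/- over WT gave log2 fold changes of 2.67 ± 0.37 after LPS and 3.54 ± 0.54 in mock, exceeded by 7 and by 3 of the tested genes. The ratios of pooled reads were 6.35 (95% counting interval 4.12 to 10.2) and 12.2 (5.34 to 34.2), the latter against WT mock libraries with 5 reads and 1 read. LPS over mock gave a log2 fold change of 2.30 ± 0.66 in WT and of 1.43 ± 0.30 in Adap-/- PMs. The WT value was 3.70 without WT mock replicate 1 and 1.60 without WT mock replicate 2.

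**Figure D1:**
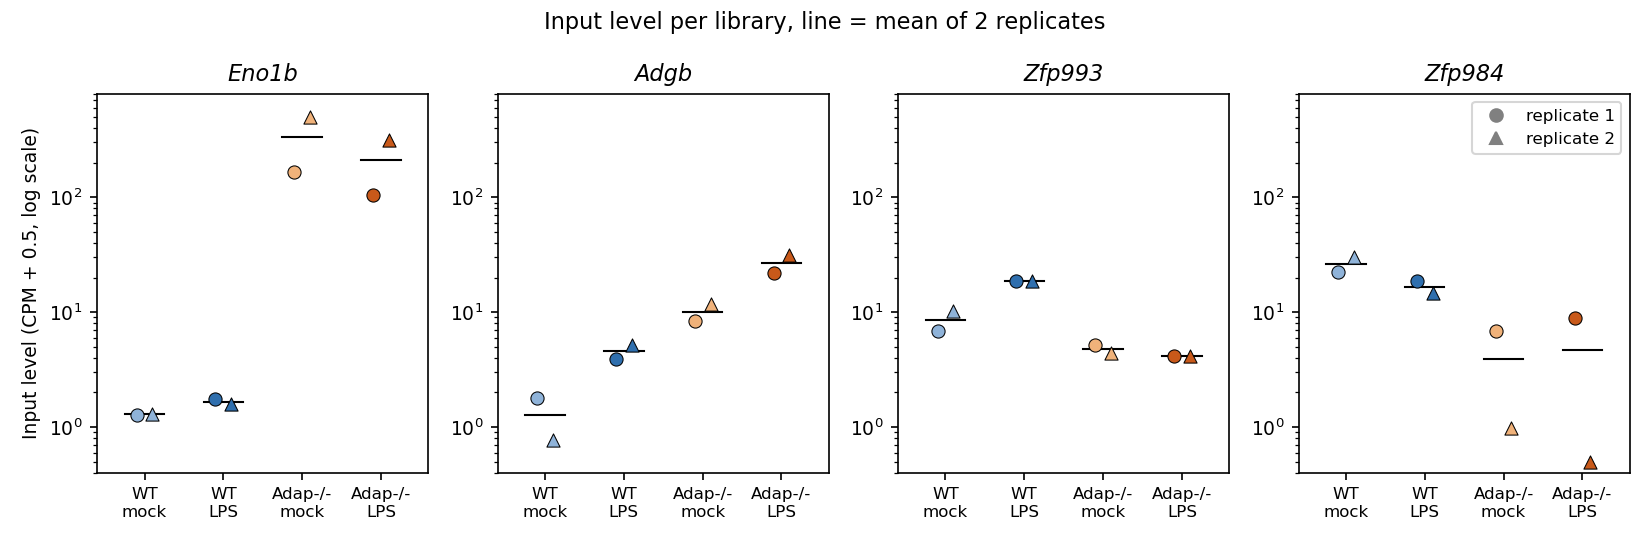
Input level of Eno1b, Adgb, Zfp993 and Zfp984, in CPM + 0.5 on a log axis. Each point is 1 library (circle, replicate 1; triangle, replicate 2) and each line the mean of a group's 2 replicates. Eno1b and Adgb lie higher and Zfp993 and Zfp984 lower in all 4 Adap-/- libraries than in the WT libraries of the same treatment. Replicate 2 of both Adap-/- groups lies above replicate 1 for Eno1b and below it for Zfp984.

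Zfp993 and Zfp984, on chromosome 4, were lower in Adap-/- than in WT PMs. The peak of Zfp993 lies in the coding sequence at chr4:146741942-146742142 on the plus strand. Its input levels were 3.67 and 3.65 CPM in Adap-/- LPS, 4.72 and 3.88 CPM in Adap-/- mock, 18.3 and 18.1 CPM in WT LPS, and 6.39 and 9.70 CPM in WT mock. The replicates were close in the LPS groups, and both WT groups lay above all 4 Adap-/- libraries. Mean levels of Zfp993 were 3.66 ± 0.0154 CPM (SD, n = 2) against 18.2 ± 0.184 after LPS and 4.30 ± 0.595 against 8.05 ± 2.34 in mock, so WT exceeded Adap-/- PMs by 4.98-fold (95% counting interval 3.15 to 8.18) and 1.87-fold (1.21 to 2.93) in pooled reads. The log2 fold changes of Adap-/- over WT were -2.30 ± 0.34 and -0.90 ± 0.34. LPS over mock gave 1.18 ± 0.28 in WT PMs and -0.23 ± 0.41 in Adap-/- PMs.

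The peak of Zfp984 lies in the coding sequence at chr4:147840405-147840580 on the minus strand. Its input levels were 8.46 and 0 CPM in Adap-/- LPS, 6.30 and 0.485 CPM in Adap-/- mock, 18.3 and 14.1 CPM in WT LPS, and 21.7 and 29.6 CPM in WT mock. The 4 WT libraries lay above the 4 Adap-/- libraries, of which the replicate 2 libraries held 0 and 2 reads. A count of 0 allows up to 1.09 CPM in that Adap-/- LPS library. Mean levels of Zfp984 were 4.23 ± 5.98 CPM (SD, n = 2) in Adap-/- LPS, 3.39 ± 4.11 in Adap-/- mock, 16.2 ± 3.00 in WT LPS and 25.7 ± 5.58 in WT mock. Adap-/- over WT gave log2 fold changes of -1.80 ± 0.68 after LPS and -2.95 ± 0.64 in mock. The size depended on the replicate: without replicate 2 of both Adap-/- groups the values were -0.94 and -2.02, whereas without Adap-/- LPS replicate 1 the LPS value was -8.82, against a library without reads. With all libraries, DESeq2 gave -1.93 ± 1.85 after LPS and -2.92 ± 1.84 in mock, so the standard error depended on the method. The LPS and mock levels overlapped in Adap-/- PMs, with a log2 fold change of 0.50 ± 0.87. Without Adap-/- LPS replicate 1 this value was -6.53, against a library without reads. In WT PMs both LPS libraries lay below both mock libraries, with a log2 fold change of -0.65 ± 0.52.

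Of the 8 zinc finger genes on chromosome 17, 6 passed the filter on low counts. None of these 6 had a genotype log2 fold change as low as those of the chromosome 4 genes. Zfp54 itself, with 41 input reads over 8 libraries, and Zfp229, with 20, did not pass the filter. Their reads were too few to show whether they shared that difference. Zfp52 had the best-covered genotype difference, with 24.8 and 29.9 CPM in Adap-/- LPS, 31.0 and 32.8 CPM in Adap-/- mock, 20.5 and 20.2 CPM in WT LPS, and 21.0 and 18.9 CPM in WT mock. All 4 Adap-/- libraries were above the WT libraries for Zfp52, by log2 fold changes of 0.41 ± 0.19 after LPS and 0.68 ± 0.18 in mock. Zfp677 gave 0.82 ± 0.66 and 0.91 ± 0.46, with overlapping genotypes after LPS, where the value was -0.19 without Adap-/- LPS replicate 1. The genotype log2 fold changes of Zfp51, Zfp948, Zfp758 and Zfp945 lay between -0.59 and 0.62 after LPS and between -0.31 and 0.50 in mock. For Zfp51, Zfp948 and Zfp758 at least 1 comparison had overlapping genotypes, and Zfp945 overlapped after LPS and was lower in Adap-/- mock (16 and 14.8 CPM) than in WT mock (17.1 and 20.2 CPM). Zfp54 itself, whose peak is also assigned to ENSMUSG00000116771, had 3 to 8 reads per library, which gave ratios of Adap-/- over WT of 0.555 (95% counting interval 0.185 to 1.53) after LPS and 1.68 (0.658 to 4.63) in mock. For Zfp229 these ratios were 0.952 (0.069 to 13.1) and 2.11 (0.677 to 7.76).

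Zfp945 lay higher with LPS than in mock. It was at 25.1 and 27.3 CPM in Adap-/- LPS against 16 and 14.8 CPM in Adap-/- mock, and at 37.9 and 25.7 CPM in WT LPS against 17.1 and 20.2 CPM in WT mock. LPS lay above mock in both genotypes, with log2 fold changes of 0.76 ± 0.22 and 0.78 ± 0.21. Zfp677 had LPS over mock values of -1.09 ± 0.49 in Adap-/- and -1.01 ± 0.63 in WT PMs, the latter with overlapping libraries, and -2.11 in Adap-/- PMs without Adap-/- LPS replicate 1.

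**Figure D2:**
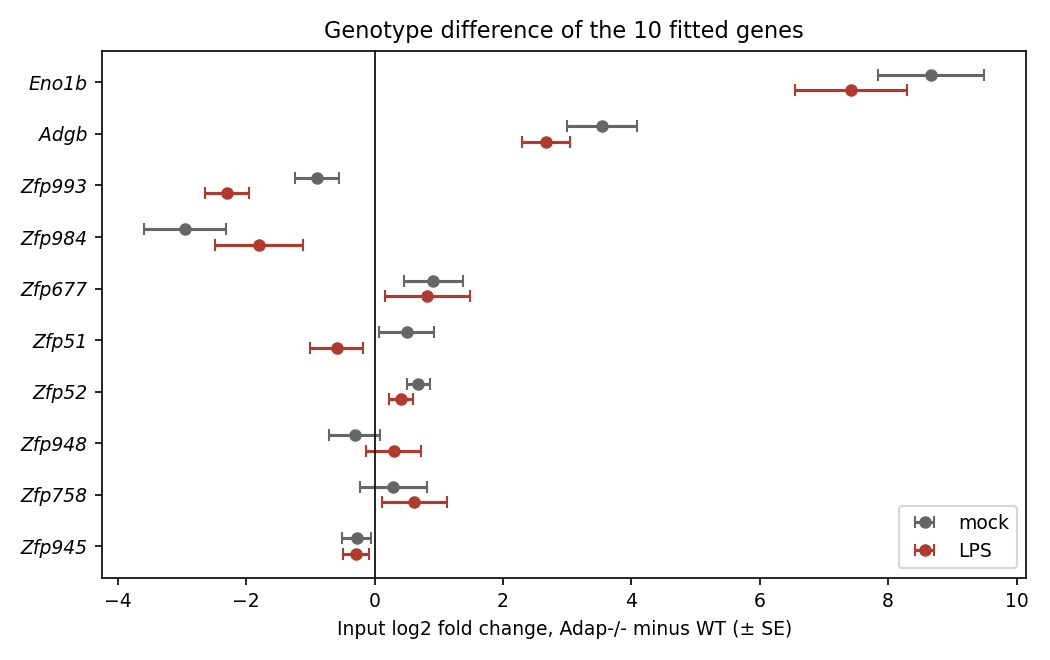
Input log2 fold change of Adap-/- over WT PMs in mock (grey) and after LPS (red) for the 10 genes that passed the filter on low counts. Bars are standard errors derived from the F statistic of the fit to all 8 input libraries. Eno1b (8.67 and 7.42) and Adgb (3.54 and 2.67) lie to the right, Zfp993 and Zfp984 to the left, and the 6 chromosome 17 genes between -0.59 and 0.91.

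Across the 12 members, after LPS 3 had both Adap-/- libraries above both WT libraries and 3 had them below. In mock these numbers were 7 and 3. Among all tested genes 56.6% and 59.8% had genotypes that did not overlap, and 15.8% after LPS and 17.4% in mock passed an adjusted p of 0.05 in edgeR. Because the rule used this contrast, nothing is read from the members' counts. For LPS against mock, 6 members in WT PMs were higher and 2 lower without overlap, and in Adap-/- PMs 3 were higher and 5 lower. Here 77.1% and 77.2% of tested genes did not overlap, and 59.2% in WT and 54.5% in Adap-/- PMs passed the adjusted p. Upper-quartile scaling moved the median log2 fold change of LPS over mock over all genes from -0.03 to -0.32 in WT and to -0.31 in Adap-/- PMs, and the share of called genes that were higher from 51.1% to 35.8% and from 52.2% to 34.9%, so LPS differences hold relative to that median.

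In the IP libraries the genotypes stood apart for Adgb, Zfp993 and Zfp984 in both treatments but overlapped for Eno1b. They also stood apart for 56.6% of all peaks after LPS and 35.9% in mock. IP and input are parts of the same fragmented RNA, so the IP levels are not separate evidence of a genotype difference. IP and matched input levels in this and the next paragraphs are CPM scaled over all 16 libraries, so that an IP over input of 1 is about that of the typical peak and not an absolute degree of methylation. Eno1b IP levels were 5.35 and 51.2 CPM in Adap-/- LPS, 6.30 and 65.8 CPM in Adap-/- mock, 0.754 and 10.6 CPM in WT LPS, and 11.1 and 14.1 CPM in WT mock. The genotypes overlapped in both treatments, and replicate 2 was again the higher one in both Adap-/- groups. WT IP libraries held 5, 153, 86 and 201 reads on the Eno1b peak although the matched WT inputs held 4, 3, 3 and 3. IP over input of Eno1b in Adap-/- PMs was 0.0393 and 0.129 with LPS and 0.0257 and 0.0882 in mock, all far below 1. The mean log2 of this ratio was -3.52 ± 0.91 (SE) against a median of 0.06 over all peaks. It is given without a p-value, as are those of Adgb, Zfp993 and Zfp984, because its denominator is the input that chose the gene.

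Adgb IP levels were 18.3 and 35.3 CPM in Adap-/- LPS, 13.2 and 5.64 CPM in Adap-/- mock, 8.74 and 11 CPM in WT LPS, and 3.47 and 2.87 CPM in WT mock. The Adap-/- libraries were above the WT libraries of the same treatment. IP over input of Adgb lay at 0.662 and 0.895 in Adap-/- LPS, 1.13 and 0.341 in Adap-/- mock and 1.95 and 1.80 in WT LPS, and WT mock had too few input reads for a ratio. The log2 ratio of Adgb in Adap-/- PMs was -0.44 ± 0.34, and 0.06 when IP and input libraries were scaled apart. The separate scaling shifted the median of all peaks by 0.50 in Adap-/- and 0.51 in WT PMs, so directions are given relative to the median peak.

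Zfp993 IP levels were 9.34 and 15.4 CPM in Adap-/- LPS against 27 and 31.8 CPM in WT LPS, and 10.2 and 8.33 CPM in Adap-/- mock against 12.9 and 24.3 CPM in WT mock. The genotypes did not overlap, in the same direction as in input. IP over input of Zfp993 was 1.95 and 3.33 in Adap-/- LPS, 1.46 and 1.45 in Adap-/- mock, 1.12 and 1.36 in WT LPS, and 1.33 and 1.63 in WT mock. The difference in log2 ratio between Adap-/- and WT PMs was 1.07 ± 0.54 after LPS and -0.05 ± 0.54 in mock. Zfp984 IP levels were 3.68 and 1.85 CPM in Adap-/- LPS against 29.1 and 38.8 CPM in WT LPS, and 19.0 and 2.82 CPM in Adap-/- mock against 21.1 and 56.9 CPM in WT mock. All 4 Adap-/- libraries lay below the WT libraries of their treatment. Of all 7069 peaks, 56.6% after LPS and 35.9% in mock had genotypes that did not overlap in the IP.

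**Figure D3:**
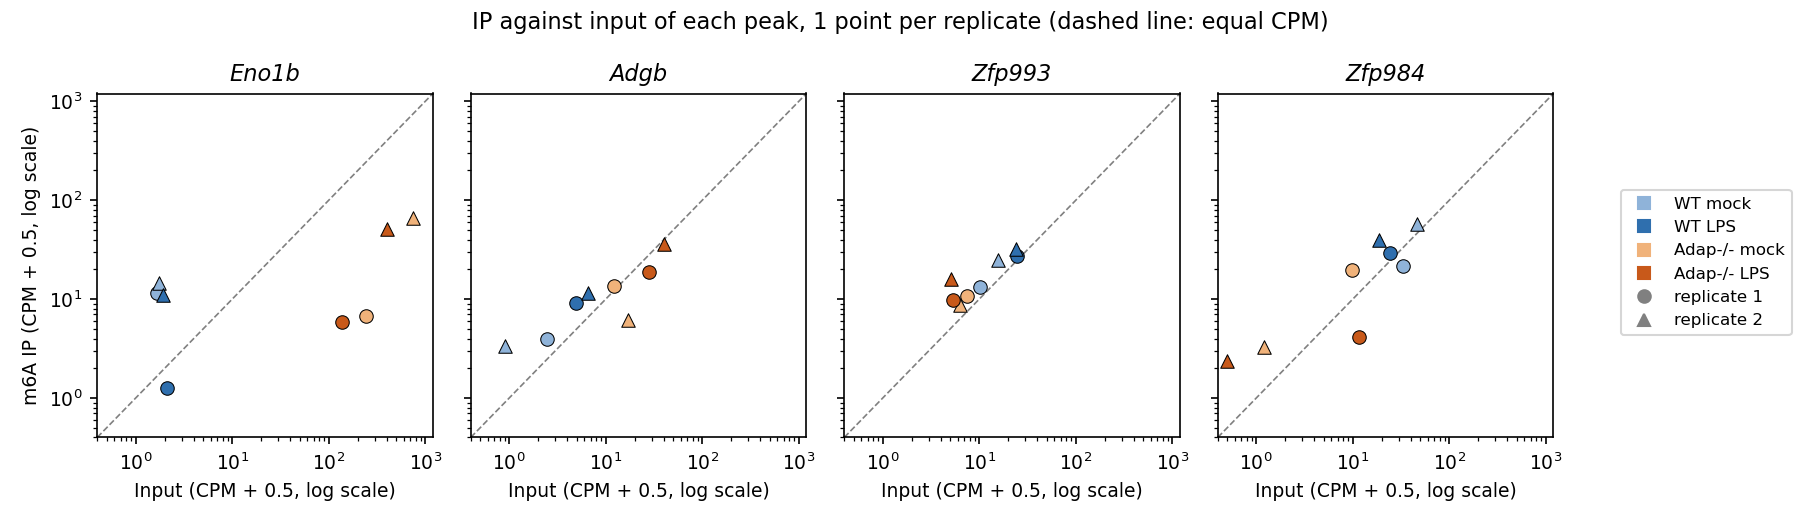
IP level against input level of the peaks of Eno1b, Adgb, Zfp993 and Zfp984, both in CPM + 0.5 on log axes. Each point is 1 replicate (circle, replicate 1; triangle, replicate 2), coloured by group, and the dashed line marks equal levels. Eno1b lies far below the line in the 4 Adap-/- replicates and above it in 3 of 4 WT replicates, while the points of the other genes with 10 or more input reads lie closer to the line.

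The chromosome 17 zinc finger genes carry 12 of the 16 peaks, 10 of them in coding sequence alone. IP over input was tested in a genotype only where each of its input libraries had 10 or more reads on the peak. This left 7 of the 12 peaks in Adap-/- and 6 in WT PMs. The second peaks of Zfp52 and Zfp948 qualified in Adap-/- PMs only, and the first peak of Zfp948 in WT PMs only. These genes entered through the symbol Zfp54, chosen on input level, and input is the denominator here. Their p-values are therefore given as descriptions and not as support. In Adap-/- PMs 3 of the 7 peaks passed the test as higher than the typical peak and none as lower, where 41.9% of 7058 tested peaks passed in either direction. In WT PMs 2 of 6 were higher and none lower, where 36.7% passed. The medians of the log2 ratio were 0.87 and 0.98, beside 0.06 for all peaks in both genotypes.

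The fourth peak of Zfp52, at chr17:21781949-21782274 over the stop codon, had the highest fitted ratio in both genotypes among the chromosome 17 peaks tested. In single groups other peaks were higher, with the first Zfp948 peak at 3.80 ± 1.11 (SD, n = 2) in Adap-/- mock and the third Zfp52 peak at 3.61 ± 1.13 in WT mock. IP over input of this peak was 2.78 and 2.64 in Adap-/- LPS, 2.67 and 2.27 in Adap-/- mock, 1.58 and 2.1 in WT LPS, and 1.77 and 4.04 in WT mock. It was above 1 in all 8 replicates, with log2 ratios of 1.36 ± 0.27 in Adap-/- (edgeR adjusted p = 0.00199) and 1.22 ± 0.28 in WT PMs (edgeR adjusted p = 0.00539). The third Zfp52 peak, at chr17:21781799-21781874 in the coding sequence just before it, gave 1.05 ± 0.25 (edgeR adjusted p = 0.00636) and 1.10 ± 0.27 (edgeR adjusted p = 0.00747). Without WT LPS replicate 2 the 2 WT calls were lost, with edgeR adjusted p of 0.0651 and 0.074, and the third peak also lost its WT call without WT mock replicate 2, at 0.0745. The first Zfp52 peak, at chr17:21780549-21780674, had log2 ratios of -0.14 ± 0.46 and 0.09 ± 0.48 (edgeR adjusted p = 0.829 and 0.902), and the difference between the peaks was not tested.

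Zfp51 had a log2 ratio of 1.17 ± 0.42 in Adap-/- PMs (edgeR adjusted p = 0.0446) and 0.85 ± 0.43 in WT PMs (edgeR adjusted p = 0.143). The Adap-/- call of Zfp51 was lost when Adap-/- LPS replicate 1 or either Adap-/- mock replicate was left out, with edgeR adjusted p of 0.406, 0.143 and 0.106, and with IP and input paired, at 0.0648. Zfp945 lay close to the typical peak, at -0.18 ± 0.20 and -0.03 ± 0.20 (edgeR adjusted p = 0.487 and 0.935). With IP and input scaled apart it was at 0.32 and 0.48, below the shifted medians of 0.57 and 0.56.

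**Figure D4:**
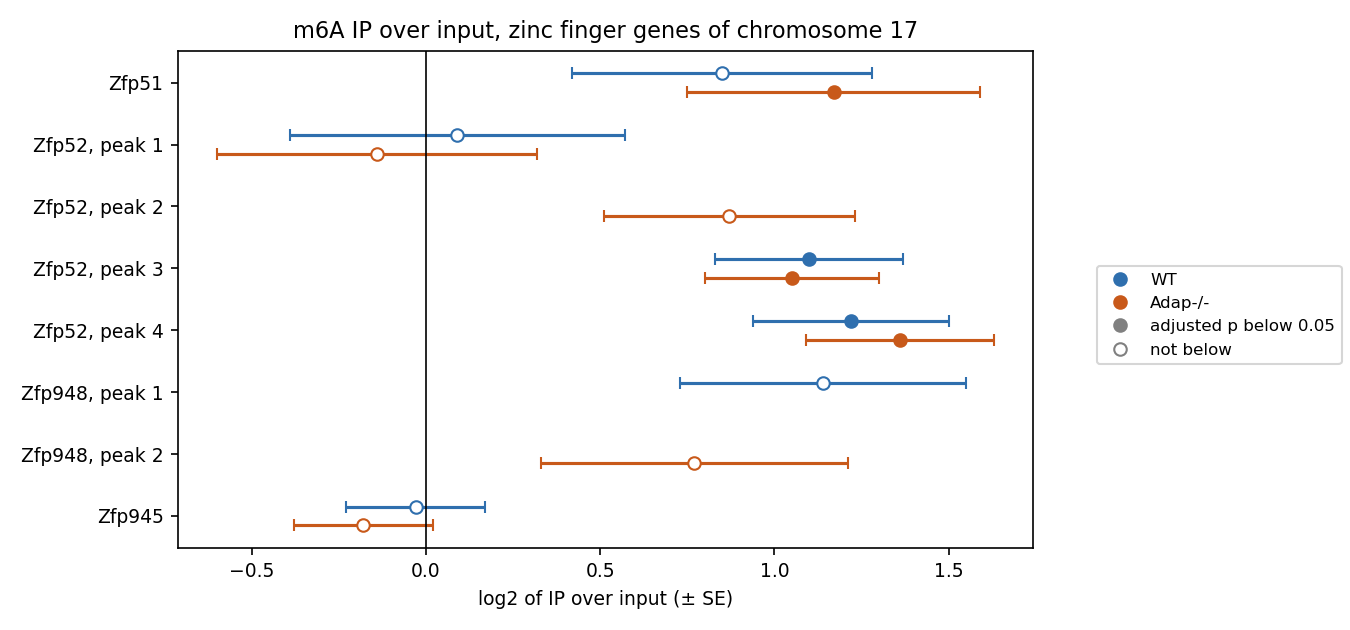
Mean log2 of IP over input, over mock and LPS, for the peaks of chromosome 17 zinc finger genes with 10 or more input reads in each library of the genotype. Bars are standard errors, and filled points have an edgeR adjusted p below 0.05. Peaks 3 and 4 of Zfp52 are filled in both genotypes, and Zfp945 and peak 1 of Zfp52 lie near 0.

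No chromosome 17 peak passed the test for a difference in IP over input between LPS and mock. The 7 chromosome 17 peaks in Adap-/- PMs had differences in log2 ratio of -1.04 to 0.67 (lowest edgeR adjusted p = 0.709), and the 6 in WT PMs of -1.43 to 0.43 (lowest edgeR adjusted p = 0.353, for the third peak of Zfp52). Among all 7058 peaks 0% passed in either genotype with edgeR, where 812 peaks in Adap-/- and 763 in WT PMs had an unadjusted p below 0.05 and DESeq2 called 117 and 201. Standard errors of 0.40 to 0.95 for these peaks set the size of change that could be detected. Without a test, the difference was 0.55 ± 1.65 for Eno1b, 0.24 ± 0.68 for Adgb and 0.83 ± 0.57 for Zfp993 in Adap-/- PMs, and -0.29 ± 0.51 for Zfp993 and 0.69 ± 1.42 for Zfp984 in WT PMs.

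Genes of the same pathways were then taken from lists of glycolysis, calpains and globins, KRAB corepressors and other zinc finger genes, as far as the table held them. Of the glycolytic genes 6 were in the table and 5 tested, without another enolase. None passed the test between genotypes after LPS. Among all tested genes 15.8% after LPS and 17.4% in mock were called between genotypes. In mock 1 was higher in Adap-/- PMs, Hk2, the inducible hexokinase (log2 fold change 0.59 ± 0.15, edgeR adjusted p = 0.0144), and 1 lower, Slc2a1, the glucose transporter GLUT1 (-0.43 ± 0.10, edgeR adjusted p = 0.0079). LPS over mock raised 3 and lowered 1 of the 5 in WT and raised 4 and lowered 1 in Adap-/- PMs, where 59.2% and 54.5% of all tested genes were called. Hk2 rose by 1.91 ± 0.14 and 1.46 ± 0.13 (edgeR adjusted p = 6.43e-09 and 8.17e-08). The median genotype log2 fold change of the list was -0.04 after LPS and -0.05 in mock, beside -0.01 and 0.01 for all genes.

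The 2 calpain genes tested, Capn15 and Capns1, passed in neither genotype comparison, with log2 fold changes of 0.83 ± 0.37 and -0.24 ± 0.34 after LPS and 0.38 ± 0.25 and -0.18 ± 0.30 in mock. Of 6 KRAB corepressor genes 1 was called between genotypes, near the share of 15.8% over all genes: Atf7ip, which encodes a partner of SETDB1, was higher in Adap-/- PMs after LPS (0.64 ± 0.21, edgeR adjusted p = 0.048). Trim28 had genotype values of -0.42 ± 0.29 after LPS and 0.18 ± 0.25 in mock, and Setdb1 had 0.58 ± 0.26 and 0.19 ± 0.20, without passing. The list medians were 0.16 and 0.19.

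Other zinc finger genes were counted beside the 15.8% (LPS) and 17.4% (mock) of all tested genes called between genotypes, without a test of the difference. Under a symbol of the form Zfp and a number, 17 were tested, among them Zfp91 and a predicted readthrough gene with the same values. None passed after LPS and 1 passed in mock, Zfp62, higher in Adap-/- PMs (0.54 ± 0.13, edgeR adjusted p = 0.0103). Some levels were low, as for Zfp3 at 2.79 CPM in Adap-/- LPS (0.08 ± 0.60 after LPS), which limits the calls that were possible. Because of the shared symbols, the family was also taken from the description (chosen after seeing the data), which gave 119 tested genes, 4 higher and 0 lower in Adap-/- PMs after LPS and 5 higher and 1 lower in mock. The widest of these was Zfp811, at 13.6 ± 1.15 CPM (SD, n = 2) in Adap-/- LPS against 2.89 ± 1.02 in WT LPS, with a log2 fold change of 2.24 ± 0.42 (edgeR adjusted p = 0.00195). Zfp811 was nearly without reads in mock, at 0.121 ± 0.172 and 0.128 ± 0.181 CPM. The only lower one was Zfp775 in mock (-0.90 ± 0.30, edgeR adjusted p = 0.0495). The others among the 8 widest were Zfp800, Zfp871, Zfp703, Zfp445 and Zfp384 beside Zfp62, with called log2 fold changes of 0.42 to 0.64. The medians of the 119 genes were 0.13 after LPS and 0.14 in mock.

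Genes with a peak within 1 Mb of a member's peak were compared between the genotypes as well. Eno1b had no such neighbour beyond the gene that shares its peak, and Zfp993 had none. Adgb had 3, Stxbp5, Rab32 and Fbxo30. Rab32, a GTPase of organelle traffic 0.115 Mb from Adgb, was higher in Adap-/- PMs after LPS (0.39 ± 0.09, edgeR adjusted p = 0.011) and in mock (0.61 ± 0.10, edgeR adjusted p = 0.000848). Stxbp5 had genotype log2 fold changes of 0.37 ± 0.15 after LPS and 0.22 ± 0.12 in mock, and Fbxo30 had -0.03 ± 0.12 and 0.20 ± 0.12, without passing the test. All 3 values after LPS and in mock lay far below those of Adgb, at 2.67 and 3.54. Srrm2, a splicing factor 0.956 Mb from Zfp945, was higher by 0.48 ± 0.13 and 0.75 ± 0.12 (edgeR adjusted p = 0.0184 and 0.000848). The other tested neighbours of the chromosome 17 genes passed in neither comparison. These were Zfp160, Zfp213 with the gene that shares its reads, Flywch1 and Elob. Among all tested genes 15.8% after LPS and 17.4% in mock were called.

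The genes whose level followed a member most closely over the 8 input libraries were taken by Pearson's correlation of log2(CPM + 1). For Eno1b these were Setd2 (r = 0.978), Osbpl3 (0.971) and Pot1b (0.969), which had genotype log2 fold changes after LPS of 0.43, 1.29 and 1.41. For Adgb they were Abcc1 (0.994), Sema4a (0.987) and Rhoq (0.980), for Zfp993 they were Rab43 with a predicted gene of the same reads (0.975) and Fem1b (0.971), and for Zfp984 they were Dusp1 (0.933), Abt1 (0.925) and Atp5mf (0.920). The 8 points share their 4 groups and the genes were picked as the highest of 4742, so these values describe likeness in these libraries alone.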

How the data were processed

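MeRIP-seq was carried out on RNA broken to about 100 nt. Per the labels, the submitters' processing notes name Bowtie2 2.2.8, MACS2 2.1.2, DiffBind 2.8 and the GRCm39 build. The deposited table holds read counts, not normalized, per peak and library, as 8094 lines of peak and gene, so genes without a peak have no value. It has 0 columns of samples from other series.

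Input counts were summed over a gene's peaks and fitted for all 8 input libraries with 1 mean per group in edgeR 4.0.16 (R 4.3.3; quasi-likelihood test, TMM, filterByExpr with a minimum count of 10 and total of 15, Benjamini-Hochberg over 4742 genes, call at 0.05). IP over input was fitted on 7058 peaks over 16 libraries. Standard errors of edgeR values were taken as the absolute log2 fold change over the square root of the quasi-likelihood F statistic. At low counts they can differ from those of DESeq2, as for Zfp984. A count of 0 was given an upper limit of 3 reads. DESeq2 1.42.0, other scalings, filters, blocks and left-out replicates were alternatives. Scripts were tested on simulated data. The named genes were all members and genes sharing their peaks, the called genes of each list (at most 8 by size) and the 3 most alike genes. Members and lists were chosen with earlier results of these data known. Results on the neighbours of Zfp984 are not reported here.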

Additional observations from a re-analysis of the deposited data

Results flagged for a closer look

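For Zfp993 and Zfp54 itself the LPS and mock libraries did not overlap in either genotype and stood in opposite order in the 2 genotypes. LPS and mock libraries did not overlap for 77.1% of all tested genes in WT and 77.2% in Adap-/- PMs. The share of genes in opposite order was not counted, so the pattern has no baseline here. For Zfp993 both WT LPS libraries lay above both WT mock libraries, with a log2 fold change of 1.18 ± 0.28 (SE), while both Adap-/- LPS libraries lay below both Adap-/- mock libraries, with -0.23 ± 0.41, within 1 SE of 0. The difference between the genotypes was not tested, since it is built from the contrast that chose the gene. Zfp54 itself, which did not pass the filter on low counts, stood in the same order on 3 to 8 reads per library, with LPS over mock ratios of pooled reads of 1.91 in WT (95% counting interval 0.718 to 5.39) and 0.631 in Adap-/- PMs (0.215 to 1.67). This difference was not tested either, and both intervals include 1.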

How the results depend on the processing

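No alternative turned the direction of a called value, and with the replicate number as a block the genotype log2 fold changes of Eno1b were 7.37 after LPS and 8.63 in mock and the numbers of genes called were 703 and 784 (750 and 823 without it), so the block changed none of these by 1.5 times. Differences between replicates 2 and 1 correlated at 0.17 between the Adap-/- groups and between -0.09 and 0.04 in the other pairs of groups, and no label ties the numbers across groups. The replicate differences of Eno1b and Zfp984 ran alike in both Adap-/- groups, and the block narrowed the standard error of Eno1b LPS over mock there from 0.41 to 0.12. With 1 replicate left out, genotype calls ranged from 354 to 519 after LPS and from 308 to 882 in mock, LPS calls from 2467 to 2622 in WT and from 2170 to 2266 in Adap-/- PMs, calls of IP over input from 2129 to 2461 in Adap-/- and from 1354 to 2555 in WT PMs, and calls of its LPS difference from 0 to 2 and from 0 to 75. Genotype log2 fold changes then ranged from 6.43 to 8.02 (LPS) and 7.66 to 9.26 (mock) for Eno1b, 2.39 to 2.94 and 2.87 to 4.97 for Adgb, -2.31 to -2.29 and -1.17 to -0.57 for Zfp993, and -8.82 to -0.94 and -5.62 to -2.02 for Zfp984. Without replicate 2 of both Adap-/- groups (chosen after seeing the data) 301 and 275 genes were called. For Zfp993 after LPS, upper-quartile scaling gave -2.28, DESeq2 -2.32 and the 4 libraries alone -2.28. These lie outside its narrow left-out range of -2.31 to -2.29, but the shift is small beside its standard error of 0.34. The LPS difference of IP over input had 0 calls, but 117 (Adap-/-) and 201 (WT) with DESeq2, 6 and 7 with a replicate block that pairs IP and input, and 1 in WT with 10 reads in every input library. Scaling IP and input apart raised the share of called peaks above input from 51.7% to 85.9% in Adap-/- and from 51.1% to 90.3% in WT PMs. The cause of these shifts was not tested, and fits with a replicate left out also hold fewer samples. Levels of 3 to 8 reads, as for Zfp54 itself and Eno1b in WT input, set the limit of what could be detected.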

Other observations

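The other genes at least 2-fold apart in the same direction between the replicates of both Adap-/- groups, picked after their values were seen, were higher in replicate 2 for Ccdc12 and the gene that shares its reads, Hsp90aa1, B3gnt5, Prg4 and Tenm4, and lower for Gas1, Vegfc, Gng5, Ccdc80, Polh, Sox12 and Nfe2l3. Ratios of replicate 2 over 1 on CPM + 0.5 were 2.32 after LPS and 2.05 in mock for Hsp90aa1, a heat shock chaperone, and 2.07 and 2.01 for Prg4, the lubricin gene. For Zfp984 they were 0.0558 and 0.145, the lowest of the 16 in each treatment. Of these genes Prg4 was the one, outside the members and the gene sharing the Eno1b peak, that also passed the genotype test, with log2 fold changes of 2.40 (edgeR adjusted p = 0.000309) after LPS and 2.57 (edgeR adjusted p = 0.000239) in mock.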
